A study of Mus musculus with 20 samples.

Results

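The genes described are 48 genes of the cell cycle and of DNA replication, taken by name from a list. All 48 were among the 14299 genes of the deposited count table. They comprise 16 genes of S phase, 10 regulators of G1 and 22 genes of G2 and mitosis (G2/M). The cells were primary cultures of mouse ovarian surface epithelium (OSE), the cell layer that covers the ovary. All dishes were first kept for 48 hours without hormone, in phenol red-free medium with charcoal-stripped serum, and were then cultured for 15 days, either with 100 nM E2 (estradiol) or with ethanol as the vehicle at 0.0002%. Single cells were captured on 1 microfluidic circuit with 20 columns, and the cells of each column were made into 1 library. The 10 control columns were loaded with 1 cell suspension through 1 inlet and the E2 columns with another, so a test of E2 against control compares 2 suspensions.

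The table held 329 control cells in 10 libraries and 260 E2-treated cells in 9 libraries, with 26 to 36 cells per library. Column 13, an E2 column, was not analysed here. Libraries held 3867791 to 5078340 reads in control and 2693258 to 4037847 in E2. Cells had a median of 120932 reads, ranging from 22184 to 248925, with medians of 128995 in control, 110884 in E2, 104789 in cluster 1 and 129418 in responsive cells. The metadata mark each of the 589 cells as captured alone, and no doublet caller was run. All 40 capture rows, which give a cell its barcode, occur in more than 1 library. Of 10 OSE markers 9 were in the table, without Muc16, and 7 were read in 80.1% (Krt19) to 100% (Krt7) of cells, Msln in 46.0% and Lgals7 in 0.849%. Krt19 was at 20.0 CPM in control cluster 1 and 395 CPM in control responsive cells. Krt8 (334 and 525 CPM), Upk1b (645 and 1047 CPM) and Krt7 (1144 and 1246 CPM) were also lower in control cluster 1. Msln (386 and 41.0 CPM), Krt18 (794 and 391 CPM), Upk3b (1958 and 1641 CPM) and Wt1 (736 and 573 CPM) were higher there. The summed OSE markers lay at 4558 to 7354 CPM in control cluster 1 libraries and 5459 to 6410 CPM in control responsive ones. The deposited labels divide the cells into 168 cells of cluster 1 (126 control and 42 E2) and 421 responsive cells (203 control and 218 E2). These labels were themselves derived from the cells' expression, and k-means without the cell cycle genes gave the same label to 583 of 589 cells. Every cell is marked G1 in the deposited CellCycle column, which therefore holds 1 value, and the question addressed is how the cycle genes themselves were distributed over the cells, the clusters and the treatments.

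A dividing cell passes from G1 through S phase, in which DNA is copied, to G2 and mitosis. Cyclins D and E with Cdk4, Cdk6 and Cdk2 inactivate the retinoblastoma proteins, E2F factors then drive the genes of S phase, and the MMB complex (B-MYB with MuvB) together with FOXM1 drives many genes of G2/M. In resting cells the DREAM complex holds both groups down. OSE cells are mostly quiescent in the ovary and divide to close the wound left by ovulation.

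The promoters of the members carry short motifs that differ in frequency between the programs, and those of 4 G2/M genes and 2 S phase genes are printed to show them. Each run is the 200 bases before the annotated start, 5′ to 3′ on the strand of the gene, from RefSeq on GRCm38.p6. Capitals mark TTTGAA (the cell cycle genes homology region), CCAAT (the box bound by NF-Y) and TTTNNCGC (an E2F site), each on either strand. In Mcm5 and Mcm6 a pair of E2F matches on opposite strands overlaps.
Top2a, chr11:99024190-99024389, minus strand: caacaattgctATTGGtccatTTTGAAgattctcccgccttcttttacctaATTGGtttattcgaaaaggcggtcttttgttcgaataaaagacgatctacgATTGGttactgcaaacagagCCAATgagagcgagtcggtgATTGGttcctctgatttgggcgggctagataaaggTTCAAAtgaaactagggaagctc
Cdk1, chr10:69352913-69353112, minus strand: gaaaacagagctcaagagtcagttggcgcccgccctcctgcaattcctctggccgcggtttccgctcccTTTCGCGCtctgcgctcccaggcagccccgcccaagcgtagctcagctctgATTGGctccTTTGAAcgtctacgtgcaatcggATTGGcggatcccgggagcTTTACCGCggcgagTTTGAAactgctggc
Mki67, chr7:135716380-135716579, minus strand: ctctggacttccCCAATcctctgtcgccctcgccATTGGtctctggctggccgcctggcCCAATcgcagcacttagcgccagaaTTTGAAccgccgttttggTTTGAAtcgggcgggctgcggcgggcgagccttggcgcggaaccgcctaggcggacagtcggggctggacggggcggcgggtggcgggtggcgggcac
Hmgb2, chr8:57511643-57511842, plus strand: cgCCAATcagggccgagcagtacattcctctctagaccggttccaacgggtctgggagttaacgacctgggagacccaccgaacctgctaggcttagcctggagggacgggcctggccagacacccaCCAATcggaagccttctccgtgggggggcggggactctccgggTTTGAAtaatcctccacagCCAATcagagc
Mcm6, chr1:128359706-128359905, minus strand: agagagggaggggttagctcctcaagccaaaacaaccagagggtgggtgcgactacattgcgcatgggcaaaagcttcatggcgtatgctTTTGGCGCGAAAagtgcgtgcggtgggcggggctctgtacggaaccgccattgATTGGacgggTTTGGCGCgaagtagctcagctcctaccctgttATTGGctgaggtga
Mcm5, chr8:75109309-75109508, plus strand: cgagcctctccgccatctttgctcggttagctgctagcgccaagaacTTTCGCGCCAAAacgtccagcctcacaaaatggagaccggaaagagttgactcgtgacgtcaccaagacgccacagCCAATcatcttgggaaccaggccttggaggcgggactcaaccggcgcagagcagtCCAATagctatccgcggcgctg

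Top2a encodes the topoisomerase that untangles chromosomes, Cdk1 the kinase of mitosis, Mki67 a protein that coats mitotic chromosomes, and Hmgb2 a chromatin protein of dividing cells. Mcm5 and Mcm6 are subunits of the helicase that opens DNA for replication. Windows of 250 bases before and 50 bases after the start were at hand for 40 of the 48 members, 45 windows in all, and none for Mcm4, Gins2, Ccne2, Ccnd1, Ccnd2, Ccna2, Aurkb or Tpx2. TTTGAA stood in 14 of 19 G2/M windows (73.7%), in 1 of 16 S phase windows (6.25%, Mcm2) and in none of 10 G1 windows, against 17.9% of all 32851 windows. TTTNNCGC had the opposite distribution, in 10 of 16 S phase windows (62.5%) and 1 of 19 G2/M windows (5.26%, Cdk1), against 5.17% of all windows. CCAAT was frequent in both programs, in 13 of 16 S phase windows (81.2%) and 17 of 19 G2/M windows (89.5%), against 37.4% of all. GGGCGG, the GC box, was in 84.2% of G2/M, 81.2% of S phase and 80.0% of G1 windows and in 35.7% of all. All 14 G2/M windows with TTTGAA also held CCAAT, a pair found in 6.95% of all windows. A match is a stretch of letters and not a bound site, and some members have several windows.

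**Figure D1:**
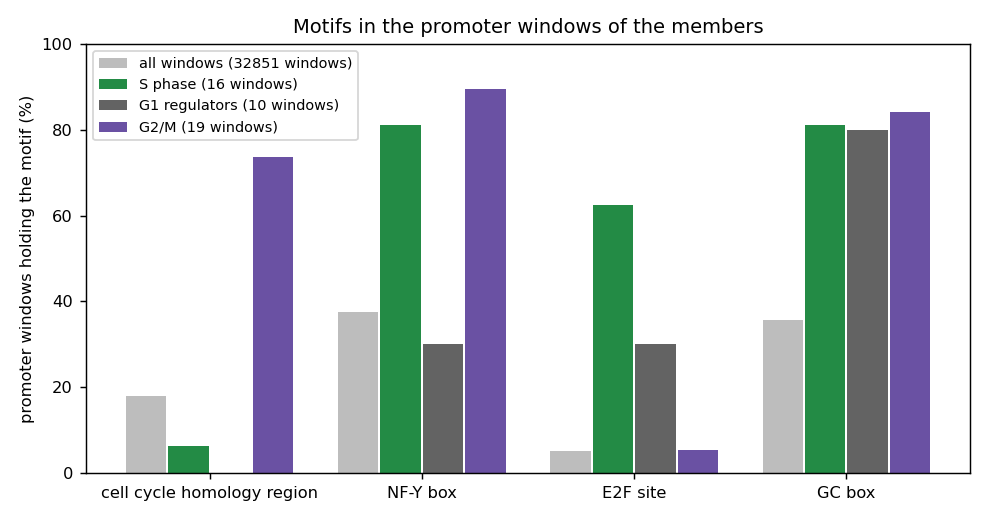
Percent of promoter windows (y axis) that hold each of 4 motifs (x axis) on either strand, for all 32851 windows and for the 16 S phase, 10 G1 and 19 G2/M windows of the members. The cell cycle homology region reaches 73.7% in the G2/M windows and 6.25% in the S phase windows, while the E2F site reaches 5.26% and 62.5%.

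Reads of the G2/M genes were found in few cells. To compare cells at 1 depth, each was thinned to 20000 reads, which all 589 cells reached. A gene is called detected in a cell with at least 1 read. At this depth a G2/M member was detected in 1.36% (Plk1) to 30.7% (Top2a) of cells, with a median over the 22 members of 6.37%. The S phase members were detected in 2.89% (Cdc6) to 65.5% (Slbp), with a median of 15.0%, and the G1 regulators in 1.19% (Ccnd1) to 92.5% (Ccnd2), with a median of 26.0%. The median over all 14299 genes was 12.2%. Levels were not compared between genes, because reads were taken from the 3′ ends and the share detected depends on the gene. Mki67 had reads in 86 cells before thinning, 43 of them with 1 read and 26 with at least 10. No cell type that lacks these genes is among the cells, so the share that free RNA would give was not measured. The libraries have no molecular identifiers. Exact intervals given below for shares of cells cover counting error only, while intervals of log2 fold changes also carry the spread between libraries.

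Those reads were gathered in a small set of cells. Of the 589 cells, 135 had no G2/M member detected, 210 had 1, 130 had 2 and 61 had 3. Only 11 cells had 4 and 8 cells had 5, and the distribution then ran on to 18 members in 1 cell. At least 5 of the 22 members were detected in 42 cells (7.13%, exact 95% interval 5.19 to 9.52%), called multi-G2/M cells here. They held 8.48% of all reads and 60.7% of the reads of the G2/M genes. Of the 2596 reads of Mki67 95.7% lay in these cells, of those of Kif23, a motor of cytokinesis, 87.1%, and of those of Tpx2, a spindle assembly factor, 78.4%. Hmgb2 had the lowest such share among the 22, 28.1%, and the median was 65.0%. Because these reads chose the cells, the shares are a description. Before thinning, the fullest cell had reads of 21 of the 22 members.

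Multi-G2/M cells were found in both clusters and both treatments. Of the responsive cells they were 12 of 203 in control (5.91%, exact 95% interval 3.09 to 10.1%) and 9 of 218 with E2 (4.13%, 1.90 to 7.69%). Of cluster 1 they were 16 of 126 in control (12.7%, 7.44 to 19.8%) and 5 of 42 with E2 (11.9%, 3.98 to 25.6%). Averaged over libraries, the shares in responsive cells were 6.14% ± 6.09 (SD, n = 10) in control and 4.28% ± 4.11 (SD, n = 9) with E2, and those in cluster 1 were 13.4% ± 11.7 (SD, n = 10) and 14.1% ± 11.9 (SD, n = 7). The differences between treatments were smaller than these SDs in either cluster. They were not tested, and an SD over libraries is not the error of a difference between means. At least 1 such cell was found in 17 of the 19 libraries, and control column 5 had the largest share, 6 of 31 cells (19.4%). Without thinning the shares in responsive cells were 26.1% in control and 14.2% with E2, and those in cluster 1 were 31.0% and 14.3%. The control cells were the more deeply sequenced.

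Taken over both treatments, 21 of 168 cells of cluster 1 (12.5%, 7.91 to 18.5%) and 21 of 421 responsive cells (4.99%, 3.11 to 7.52%) were multi-G2/M cells. Cluster labels rest on the same reads, so no test was made between the clusters. Along the trajectory of 7 states that the authors computed with monocle, state 1 held 167 of the cluster 1 cells, among them all 21 multi-G2/M cells of the cluster, and 22 responsive cells. Of these 22, all of them control, 6 (27.3%) were multi-G2/M cells. State 4 had 7 among its 63 responsive cells (11.1%), whereas state 2, with 143 control and 4 E2 cells, had 2 of 147 (1.36%) and state 5, with 151 E2 cells and no control cell, had 3 of 151 (1.99%).

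The S phase genes were read together with the G2/M genes in part of these cells. Multi-G2/M cells had a median of 6.5 of the 16 S phase members detected, and the other cells had a median of 3. At least 8 S phase members were detected in 33 cells. Of these, 20 were also multi-G2/M cells, 13 were not, and 22 multi-G2/M cells had fewer than 8 S phase members. Multi-G2/M cells held 28.5% of all S phase reads. Rrm2, the small subunit of ribonucleotide reductase, had 77.7% of its reads in them, Mcm5 64.4% and Uhrf1, which keeps DNA methylation through replication, 58.9%. Rrm1, the large subunit, had 11.4% and Slbp, which binds histone mRNA, had 18.5%.

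**Figure D2:**
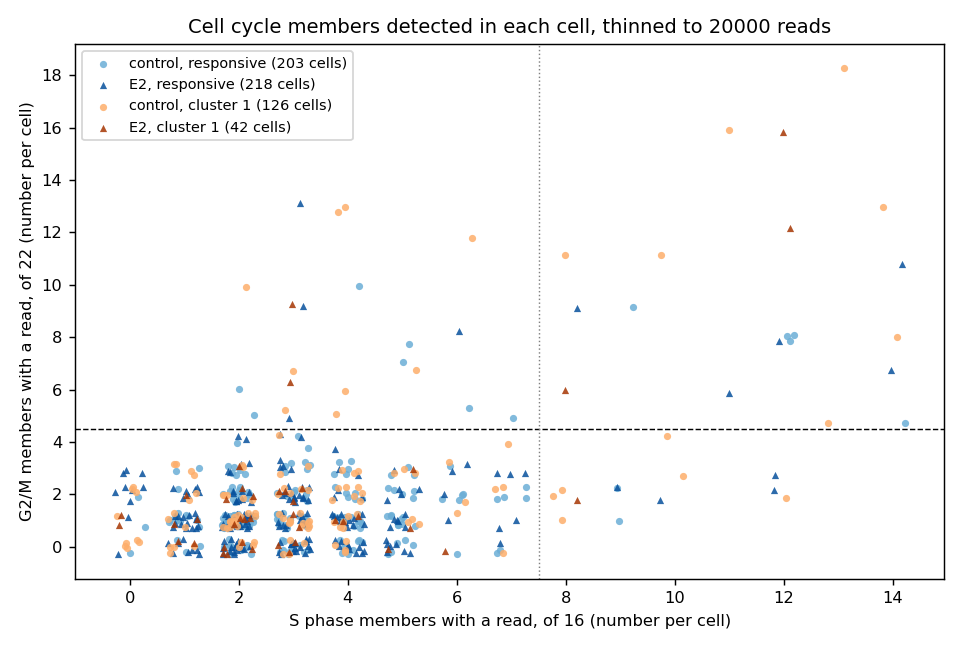
Each point is 1 of 589 cells after thinning to 20000 reads, with the number of 16 S phase members detected on the x axis and of 22 G2/M members on the y axis (points are spread slightly to show overlap). The dashed line marks 5 G2/M members and the dotted line 8 S phase members, and 42 cells lie at or above the first, 20 of them also at or right of the second.

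Pairs of members were compared with the number of shared cells that their separate shares would give. Top2a and Mki67 were both detected in 32 cells, against 12.9 from the shares, and Tpx2 and Mki67 in 18 against 2.92. Over the 148 pairs of G2/M members with at least 1 cell from the shares, the median ratio was 2.58, and 147 pairs lay above 1. In S phase, Mcm2 and Mcm6 shared 36 cells against 13.95, with a median ratio of 1.70 over 118 pairs, 114 of them above 1. Between the programs, Rrm2 and Mki67 shared 14 cells against 2.42, while Mcm2 and Cenpf, a centromere protein of late G2, shared 14 against 15.1. The median ratio over 320 such pairs was 1.69, with 291 above 1. All pairs of genes in the table had a median of 1.01 with quartiles of 0.89 and 1.15, and 56.7% lay above 1. Differences between cells in the number of genes detected at equal reads were not removed.

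**Figure D3:**
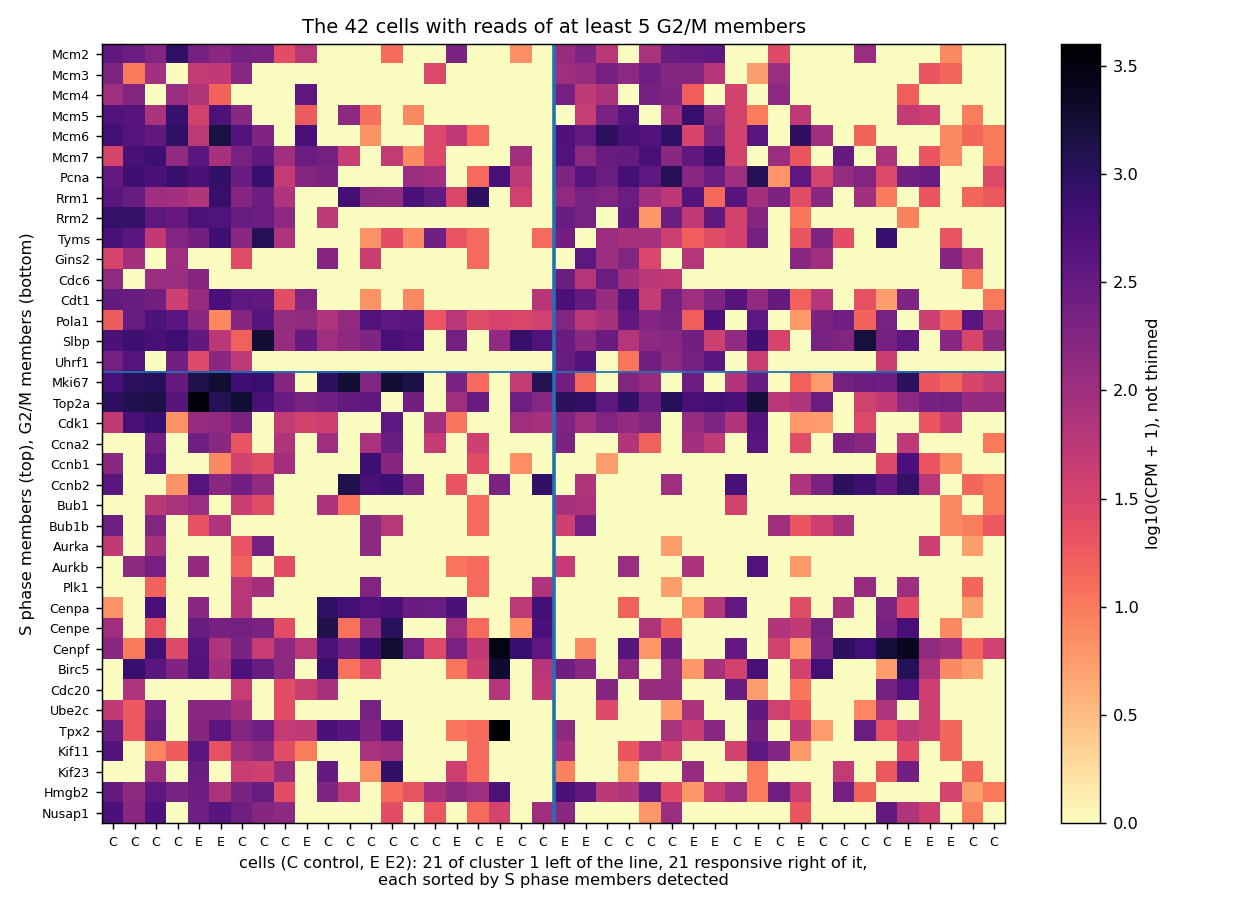
Level in each cell, as log10 of CPM + 1 (CPM is the counts-per-million scale) and not thinned, for the 16 S phase members (upper rows) and 22 G2/M members (lower rows) in the 42 multi-G2/M cells, with 21 cells of cluster 1 left of the vertical line and 21 responsive cells right of it, each sorted by S phase members detected. In both blocks cells rich in S phase members stand at the left, and Mki67, Top2a, Cenpf and Tpx2 include the darkest fields.

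All 42 multi-G2/M cells were marked G1 in the deposited column. The tool behind that column is not given in the sources used here. The scran function cyclone, which compares the order of marker pairs within a cell, was rerun on the counts with its mouse pairs and also called all 589 cells G1. Its lowest G1 score was 0.508, and its highest scores were 0.682 for G2M and 0.709 for S. A G2M score above 0.1 was given to 12 cells, of which 11 were multi-G2/M cells, and the median G1 score of the multi-G2/M cells was 0.9955. The column therefore does not separate cells by the reads of these 48 genes. Multi-G2/M cells had a median of 150690 reads and the others of 118709. Capture rows are shared by the libraries, and the 12 cells of row 28 had reads of 8.25 G2/M members on average before thinning, against 1.5 to 5.06 in the other rows. Of its cells 3 were multi-G2/M cells, and without the row the share was 39 of 577 (6.76%). The part of the row in the counts was not tested.

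Levels are given per library and cluster, from the pooled reads of at least 3 cells, as CPM with TMM factors. In such sums, fewer cells expressing a gene and less RNA per cell cannot be told apart. E2 was tested with the quasi-likelihood test of edgeR over all genes that passed its filter on low counts. Calls needed a log2 fold change beyond 0.5 in size and an adjusted p under 0.05. In responsive cells 1.37% of 10266 genes were called, 141 genes (0.847% higher and 0.526% lower with E2). Of the members 35 passed the filter (15 S phase, 6 G1 and 14 G2/M) and none was called by edgeR, DESeq2 or limma-voom. Unadjusted p-values were below 0.05 for 2 members (5.71%), Slbp and Ccnd2, and for 9.84% of all genes tested. The median log2 fold change was 0.09 over the S phase, -0.15 over the G1 and 0.42 over the G2/M members, against 0.02 over all genes.

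Among the S phase genes, Slbp (chr5:33634952-33652574, minus strand) had library levels of 79.5 to 180 CPM (median 108) in control and 96.4 to 288 CPM (median 171) with E2. The ranges overlapped, and the log2 fold change was 0.47 (SE 0.21, 95% interval 0.05 to 0.89, edgeR adjusted p = 0.431). Pcna, the sliding clamp of the polymerase, lay at 7.15 to 121 CPM (median 51.4) in control and 32.4 to 152 CPM (median 58.3) with E2, with a fold change of 0.36 (SE 0.40, interval -0.45 to 1.18). The fitted values of the helicase subunits had both signs. Mcm2 ranged over 0.392 to 39.4 CPM (median 13.5) in control and 0 to 53.4 CPM (median 25.8) with E2, a difference of 0.62 (SE 0.68). Mcm6 ranged over 13.8 to 113 CPM (median 35.7) and 11.2 to 132 CPM (median 23.2), a difference of -0.36 (SE 0.46). Rrm2 lay at 0 to 27.1 CPM (median 8.77) in control and 0 to 30.5 CPM (median 6.94) with E2. For Mcm2, Mcm6 and Rrm2 alike the libraries of the treatments were intermixed, and the remaining S phase members had log2 fold changes of -0.42 (Mcm3) to 0.90 (Uhrf1) with intervals that include 0.

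Of the G1 regulators, Ccnd2 (chr6:127125162-127152193, minus strand) was read in 98.0% of the cells. Its library levels were 502 to 862 CPM (median 609) in control responsive cells and 666 to 1089 CPM (median 799.8) with E2, and the upper part of the control range overlapped the lower part of the E2 range. The log2 fold change of 0.39 (SE 0.12, interval 0.14 to 0.65) had an unadjusted p of 0.0035 and did not pass after adjustment (edgeR adjusted p = 0.143). In contrast Ccnd1 had 99 reads in 11 of 589 cells, 8 of them control responsive cells. Its levels were 0 to 5.84 CPM (median 1.13) in control and 0 to 7.93 CPM (median 0) with E2, with 7 of 9 E2 libraries at 0. Ccnd3 lay at 76.1 to 272 CPM (median 217) in control and 102 to 239 CPM (median 187) with E2, a fold change of -0.15 (SE 0.20).

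Cdk4, the kinase partner of the D cyclins, differed by 0.00 on the log2 scale (SE 0.15, interval -0.30 to 0.30), with 206 to 397 CPM (median 337) in control and 210 to 417 CPM (median 304) with E2. The inhibitor Cdkn1a (p21) had 29.0 to 363 CPM (median 87.4) in control and 20.6 to 165 CPM (median 131) with E2, a fold change of -0.15 (SE 0.36). Cdkn1b (p27) had 12.7 to 64.6 CPM (median 30.1) and 6.11 to 70.3 CPM (median 21.6), a fold change of -0.29 (SE 0.41). For all 3 genes the ranges of the treatments overlapped.

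The G2/M genes spread widely between libraries. Mki67 (chr7:135689784-135716361, minus strand) lay at 0 to 23.9 CPM (median 5.30) in control responsive cells and at 0.423 to 68.8 CPM (median 1.73) with E2. Its mean was 8.98 ± 9.498 (SD, n = 10) and 14.4 ± 22.4 CPM (SD, n = 9), so the E2 mean was the higher and the E2 median the lower, and the fold change was 0.66 (SE 0.93, interval -1.25 to 2.56). The highest E2 value, 68.8 CPM, came from column 11, and the next was 26.5 CPM. Top2a lay at 27.1 to 117 CPM (median 47.9) in control and 31.6 to 165 CPM (median 54.2) with E2 (fold change 0.25, SE 0.34, interval -0.45 to 0.94). Cdk1 had 12.4 to 44.7 CPM (median 25.2) and 11.3 to 60.4 CPM (median 28.4), a difference of 0.10 (SE 0.38). For Hmgb2 the values were 1.72 to 57.1 CPM (median 19.4) and 4.08 to 70.9 CPM (median 21.8), with a difference of 0.24 (SE 0.56). Ccnb1, the cyclin of Cdk1 in mitosis, did not pass the filter and lay at 0 to 20.3 CPM (median 1.52) in control and 0 to 37.7 CPM (median 1.62) with E2. The G2/M members tested had log2 fold changes of -1.22 (Ccnb2) to 0.77 (Ube2c). Except for Top2a and Cdk1, their intervals reach beyond 1 log2 unit, so the test leaves room for such changes.

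**Figure D4:**
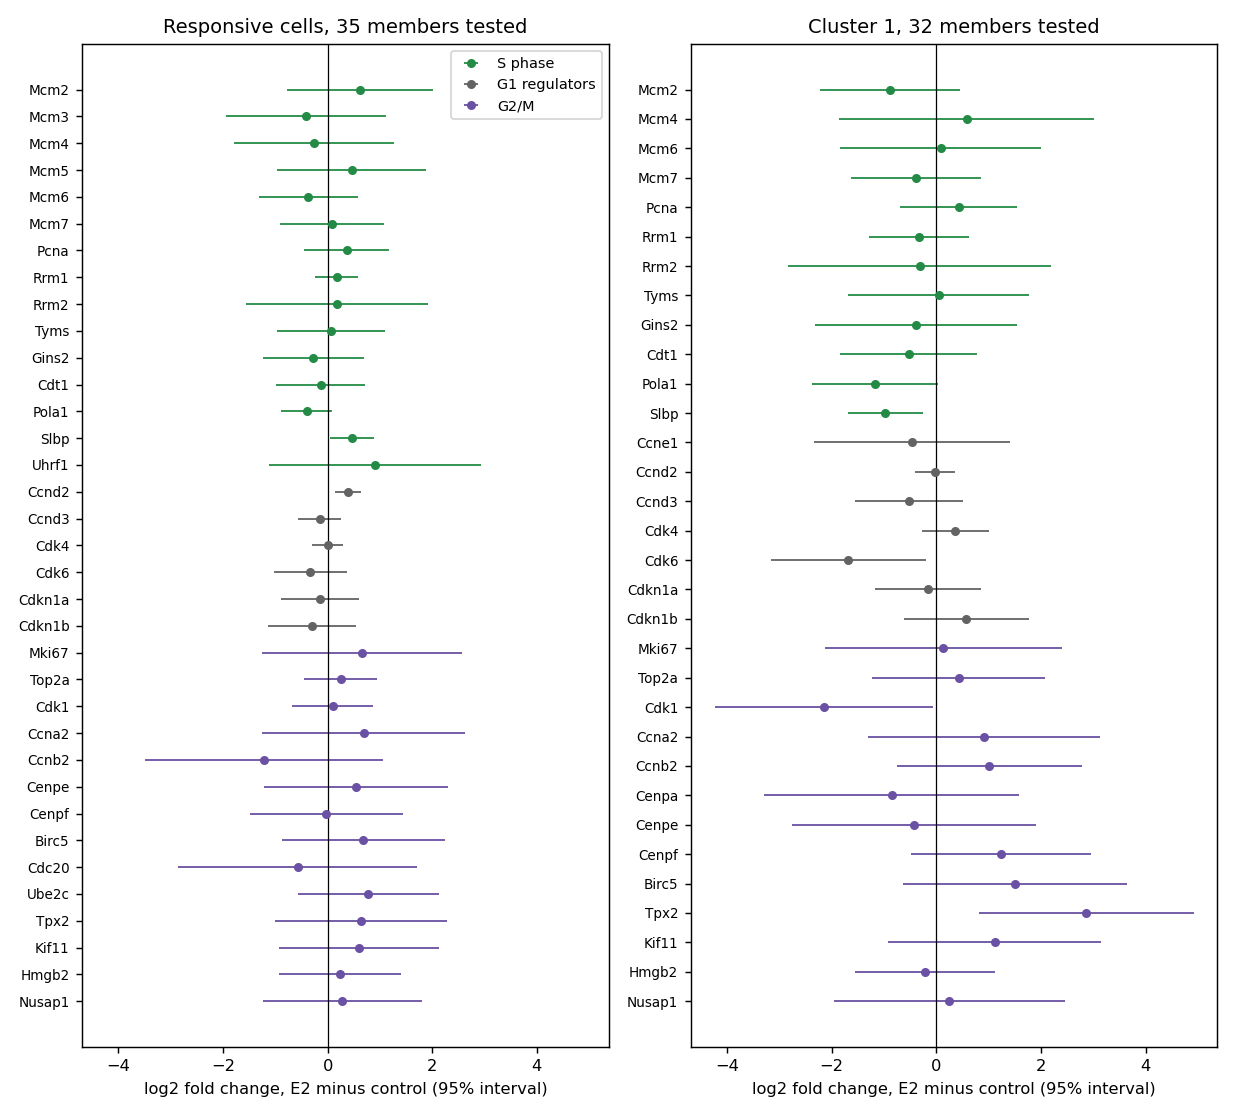
Log2 fold change of E2 against control (x axis, points) with its 95% interval from edgeR (lines) for the 35 members tested in responsive cells and the 32 tested in cluster 1 (y axis), coloured by program. In responsive cells the intervals of Slbp and Ccnd2 lie above 0, in cluster 1 that of Tpx2 lies above 0 and those of Slbp, Cdk6 and Cdk1 below it, and no member passed after adjustment.

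The share of responsive cells in which a gene was detected at 20000 reads was tested by exact two-sided permutation of the libraries. It called 0.91% of 11534 genes, 105 genes, and none of the 42 members tested. Unadjusted p-values were below 0.05 for 2 members and for 1363 genes in all (11.8%). Cenpa, the histone of the centromere, was detected in 8.28% ± 6.66 (SD, n = 10) of control and 2.87% ± 2.85 (SD, n = 9) of E2 cells (exact permutation p = 0.0261, adjusted p = 0.336). Ccnd2 was detected in 95.6% ± 2.59 of control and 90.6% ± 6.67 of E2 cells (exact permutation p = 0.0423, adjusted p = 0.401), a negative difference where that of its summed level was positive. Mki67 was detected in 7.08% ± 7.88 and 4.40% ± 3.72 (exact permutation p = 0.395). With another random draw of the thinned reads, 0 of 40 members had an unadjusted p below 0.05. Neither Cenpa nor Ccnd2 was below it in unthinned cells or with at least 2 reads. Their differences thus depend on the draw, and the median difference over all genes tested was -1.55 percentage points.

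In cluster 1, where 10 control and 7 E2 libraries had sums, 0.0839% of 8342 genes were called for E2, 7 genes (0.036% higher and 0.048% lower), and none of the 32 members tested by edgeR, DESeq2 or limma-voom. Unadjusted p-values were below 0.05 for 4 members (12.5%) and for 7.48% of all genes tested. Slbp, whose fitted value was positive in responsive cells, lay at 81.2 to 295 CPM (median 166) in control and 48.5 to 122 CPM (median 96.1) with E2, with overlap between 81.2 and 122 CPM (log2 fold change -0.97, SE 0.35, edgeR adjusted p = 0.472). Cdk6, the other partner of the D cyclins, had 23.7 to 153 CPM (median 50.2) in control and 1.32 to 79.8 CPM (median 10.8) with E2 (-1.68, SE 0.72). Cdk1 had 1.49 to 162 CPM (median 21.2) in control and 0 to 28.9 CPM (median 2.98) with E2, 3 of 7 E2 libraries being at 0 (-2.15, SE 1.01, edgeR adjusted p = 0.655). Tpx2 rests on 1 library, with 1309 CPM in 3 cells of column 15 and 0 to 77.9 CPM in the other 6 E2 libraries, against 0.629 to 76.0 CPM (median 25.5) in control. Its log2 fold change was 2.87 (SE 0.99) and became -0.18 when sums of fewer than 5 cells, column 15 among them, were dropped.

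The G2/M genes had both directions with E2 in cluster 1. Of the 13 tested by edgeR, 9 had a positive fitted value and 4 a negative one. Their median log2 fold change was 0.43, against -0.36 over S phase members, -0.16 over G1 members and -0.06 over all genes. In the 42 E2 cells of cluster 1, Ccnb1 had 2 reads in 2 cells, and Aurka and Plk1, kinases of mitosis, had none. In the 126 control cells of the cluster, Ccnb1 was read in 20, Aurka in 8 and Plk1 in 9. Mki67 lay at 0 in 4 of 7 E2 libraries and reached 348 CPM in the highest (median 0), while control libraries lay between 0 and 238.5 CPM (median 112). With means of 94.4 ± 87.0 (SD, n = 10) in control and 100.1 ± 160 CPM (SD, n = 7) with E2, the log2 fold change was 0.14 (SE 1.10, interval -2.13 to 2.41). The 474 E2 reads of Mki67 came from 3 cells. Over all cells, without the labels, 1.62% of 10941 genes were called, 177 genes (1.13% higher and 0.484% lower), and none of 40 members (edgeR, DESeq2 and limma-voom). Of these members, 3 (7.5%, against 11.8% of all genes) had an unadjusted p below 0.05. They were Pola1 (-0.44, SE 0.21), a subunit of the priming polymerase, Ccnd2 (0.25, SE 0.12) and Cdk6 (-0.67, SE 0.29).

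Whether the difference with E2 itself differed between the clusters was asked by an interaction term in 1 model of all sums, which called 0.184% of 11394 genes, 21 genes (0.0176% higher and 0.167% lower). Of the calls, 9.52% were higher, against 31.8% of 22 genes with RLE factors, which moved the median of all genes by 0.16. The median over all genes was -0.19, and those over the members were -0.56 in S phase, -0.47 in G1 and -0.31 in G2/M. None of 45 members was called by edgeR. An unadjusted p below 0.05 was found for 6 (13.3%), against 10.9% of all genes. The smallest was that of Slbp, with a log2 difference of -1.498 (SE 0.38, edgeR p = 2.8e-04, adjusted p = 0.0788), which DESeq2 called (-1.32) and which was -1.35 and not called with the library as a block. Ccnd2 had -0.47 (SE 0.21) and Cdk1 -2.30 (SE 0.97). With the library as a block no gene was called by edgeR, and 4 members had an unadjusted p below 0.05. For Ccnb1, Ccne2 and Aurka the E2 sums of cluster 1 held at most 2 reads, and no fold is given.

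The difference between the clusters is given as a description, since the labels were derived from the same cells. The fit of cluster 1 against responsive cells called 15.9% of 9821 genes, 6.7% higher and 9.2% lower in cluster 1, and 5 of the 35 members that passed its filter. Mki67 (log2 fold change 3.14, SE 0.79), Tpx2 (3.29, SE 0.71), Ccnb2 (2.38, SE 0.79) and Hmgb2 (1.23, SE 0.44) were higher in cluster 1 and Ccnd3 (-1.63, SE 0.23) was lower. Nothing is read from this count. With the library as a block 5 were called as well, with Mcm2 in place of Hmgb2. The median was 1.23 over 13 G2/M members, 0.60 over 15 S phase members and 0.24 over 7 G1 members, against -0.02 over all genes. In the 17 libraries with both sums, Hmgb2 and Tpx2 were higher in cluster 1 in 14, Ccnb2 in 12 and Mki67 and Top2a in 11. The mean of Tpx2 was 101.5 ± 312 against 6.93 ± 7.05 CPM (SD, n = 17), and without E2 column 15 it was 26.0 ± 24.7 against 5.93 ± 5.90 CPM (SD, n = 16), with a log2 fold change of 2.05. Without that column 7 members were called, with Top2a, Mcm2 and Ube2c added and Hmgb2 (1.04) lost.

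Among S phase genes, Mcm2 was higher in cluster 1 in 15 of 17 libraries, at 48.6 ± 36.6 against 18.2 ± 13.9 CPM (SD, n = 17 each; log2 fold change 1.29, SE 0.51). Mcm3, in contrast, was lower in 11 of 17, at 10.7 ± 18.3 against 14.9 ± 14.3 CPM. Rrm2 was at 38.1 ± 51.01 and 9.64 ± 9.01 CPM (1.89, SE 0.76), yet higher in cluster 1 in 8 libraries and lower in 7. Pcna was higher in 12 and Slbp in 8 of 17.

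Ccnd3 and Cdkn2a had 1 direction in more of the 17 libraries than any other member. Ccnd3, a cyclin D (chr17:47505051-47599691, plus strand), was lower in cluster 1 in 16 of 17 libraries, with 33.5 to 138 CPM (median 65.0) in control and 8.49 to 88.9 CPM (median 48.8) in E2 cluster 1 sums, and the latter lay below every E2 responsive library (102 to 239 CPM). Cdkn2a (chr4:89274471-89294653, minus strand), the locus of the inhibitors p16 and ARF, was lower in 17 of 17. It had 229 reads in 62 cells before thinning, 61 of them responsive. After thinning it was detected in 13 of 203 control and 6 of 218 E2 responsive cells (6.40% and 2.75%). In cluster 1 these were 0 of 126 and 0 of 42. Control responsive libraries lay at 0.746 to 12.3 CPM (median 2.57) and E2 ones at 0.691 to 8.56 CPM (median 1.92). In cluster 1 it was at 0 in 9 of 10 control libraries and in all 7 E2 libraries, and 0 of 42 E2 cells had a read (exact 95% upper limit 8.41%). Cdkn2b, the neighbouring p15 gene and no member of the 48, was likewise lower in 16 of 17 libraries, at 1.46 ± 5.17 against 20.6 ± 11.4 CPM.

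Cdkn1b was higher in cluster 1 in 15 of 17 libraries (51.3 ± 36.0 against 29.1 ± 17.02 CPM, log2 fold change 0.88, SE 0.35) and Cdk4 lower in 15 (274 ± 129 against 327 ± 66.4 CPM, -0.25, SE 0.16). Cdkn1a was higher in 10 and lower in 7. Ccnd2 was higher in 13 of 17, at 823 ± 179 against 710.4 ± 159 CPM. Cluster 1 also differed in genes of other cell types. Of 7 stromal fibroblast markers 5 were in the table, and their summed level was 2869 to 4646 CPM in control and 2736 to 8570 CPM in E2 cluster 1 sums, against 1614 to 2133 and 1574 to 4213 CPM in responsive sums. Most of the higher sum was Col1a2, at 2038 CPM in control cluster 1 and 13.4 CPM in control responsive cells. Dcn was at 1494 and 1201 CPM and Pdgfra at 10.5 and 7.99 CPM, while Col1a1, at 84.7 and 186 CPM, and Col3a1, at 276 and 546 CPM, were lower in cluster 1, and Lum and Pdgfrb were not in the table. Of 4 theca markers 2 were in the table, and their summed level was 79.3 to 489 and 96.0 to 647 CPM in control and E2 cluster 1 sums, against 14.4 to 59.1 and 12.6 to 129 CPM in responsive sums. This was Star, at 226 and 34.8 CPM in control cluster 1 and responsive cells, with Cyp11a1 at 0.893 and 1.04 CPM. Of 6 granulosa markers 2 were in the table (0 to 214 CPM summed), of 5 endothelial markers 2 (314 to 793 CPM, with Kdr at 0.687 CPM in control cluster 1 and 41.7 CPM in control responsive cells) and of 7 leukocyte markers 6 (2.35 to 157 CPM). Their part in the differences between the clusters was not tested.

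**Figure D5:**
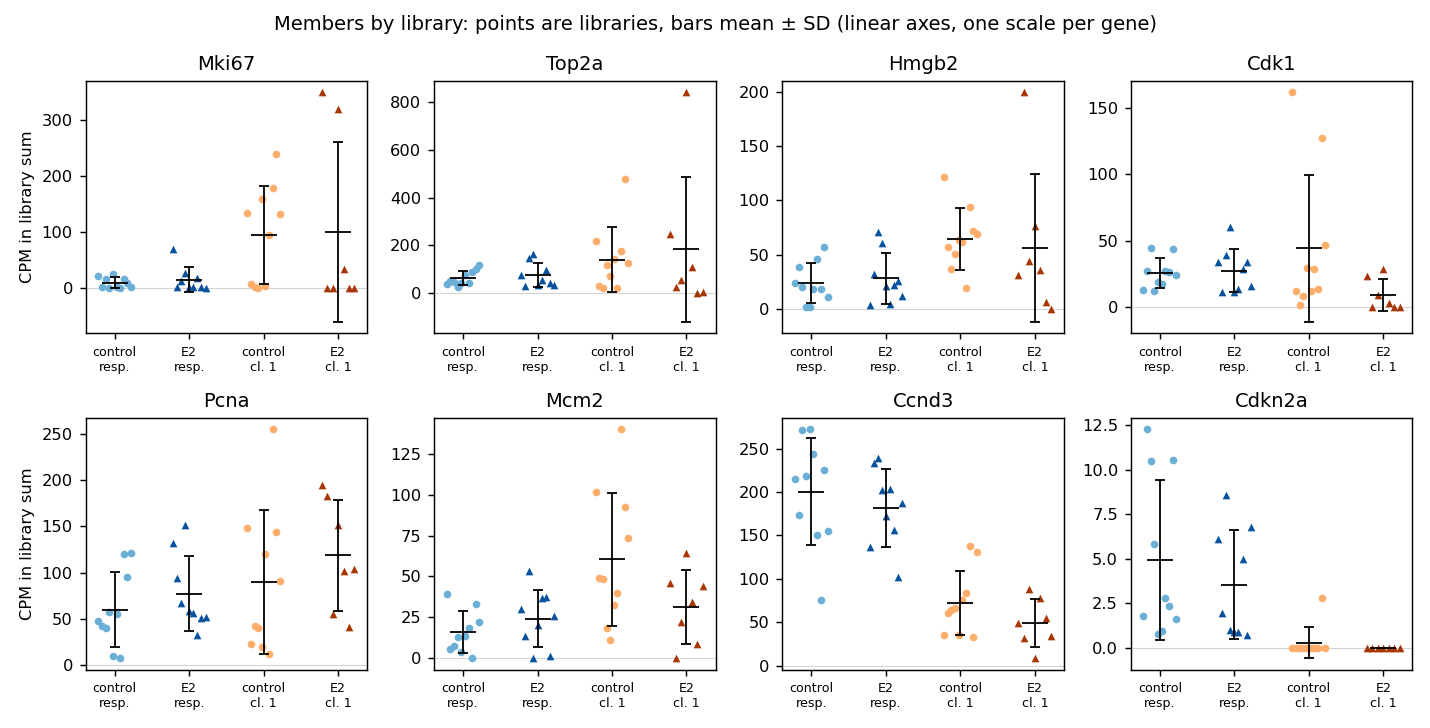
Level of 8 members in CPM (y axis, linear, 1 scale per gene) in each library sum of control and E2 responsive cells and of control and E2 cluster 1 cells (x axis), with bars for mean ± SD over 10, 9, 10 and 7 libraries. Ccnd3 and Cdkn2a lie lower in cluster 1, Mki67 reaches 348 CPM there with 4 of 7 E2 libraries at 0, and in responsive cells the control and E2 points of each gene are intermixed.

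The multi-G2/M cells were then set beside the other cells of their cluster, with all reads of each set pooled and without an error between libraries. In cluster 1 Rrm2 was at 237 CPM in the 21 multi-G2/M cells and 4.30 CPM in the other 147, and in responsive cells at 89.4 CPM in 21 and 4.00 CPM in the others. Mcm2 was at 171 and 42.0 CPM in cluster 1 and at 81.8 and 14.1 CPM among responsive cells. Mki67, whose reads helped to choose the cells, was at 738 and 2.44 CPM in cluster 1 and at 138 and 1.41 CPM among responsive cells. Multi-G2/M cells held 77.0% of the G2/M reads of cluster 1 and 45.5% of those of responsive cells.

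The G1 regulators had both directions. Ccne2, a cyclin E that activates Cdk2, had 47.7% of its 285 reads in the multi-G2/M cells. Before thinning it was read in 21.4% of them and 2.56% of the others. Ccne1, the other cyclin E, had 11.5% of its 650 reads there and was read in 16.7% and 15.5%. Ccnd2 was lower in the multi-G2/M cells of cluster 1, at 380 against 930.1 CPM, and was detected in 15 of 21 of them (71.4%) and in 139 of 147 others (94.6%). Among responsive cells it was at 599.9 and 697 CPM. Cdk4 was at 281 and 246 CPM in cluster 1 and at 355 and 307 CPM among responsive cells. Cdkn1a was at 291 CPM in the multi-G2/M cells of cluster 1 and 133 CPM in the others, and at 76.1 and 111 CPM among responsive cells. Within cluster 1, 182 of its reads came from 1 control cell of column 1 and 172 from 1 E2 cell of column 17. The next multi-G2/M cell there had 81 reads. After thinning Cdkn1a was detected in 14 of the 21 and in 52 of the 147 others. Cdkn1b was at 78.7 and 47.3 CPM in cluster 1 and at 26.0 and 26.7 CPM among responsive cells. Its difference in cluster 1 rests largely on 1 control cell of column 5 with 93 reads, and the next cell had 36. Ccnd3 was at 103 and 70.5 CPM in cluster 1 and at 170.1 and 186 CPM among responsive cells, so its difference between the clusters was also present outside the multi-G2/M cells.

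Another 200 genes of the cycle and its control were held in 7 lists (origin licensing and firing, the replication fork and nucleotides, RB with E2F and DREAM, other mitosis genes, other cyclins and inhibitors, p53 with growth arrest and quiescence, and growth factors with MYC), and 196 were in the table. For E2 in responsive cells, edgeR called 1 of 155 tested, Fos, an immediate early transcription factor, and DESeq2 called Fos and Cdkn2c, an inhibitor of Cdk4 and Cdk6. Fos rose from 1049 ± 229 (SD, n = 10) to 1709 ± 447 CPM (SD, n = 9), a log2 fold change of 0.69 (SE 0.15, edgeR adjusted p = 0.00882). In cluster 1 none of 137 was called by edgeR or limma-voom and 2 by DESeq2. An unadjusted p below 0.05 was found for 11 (8.03%), against 7.48% of all genes. For the interaction edgeR called 1 of 182, E2f6, a repressor of the E2F family (-4.08, SE 0.85, edgeR adjusted p = 0.0204), which had 31.1 ± 14.7 and 47.6 ± 16.9 CPM in control and E2 responsive cells and 36.1 ± 28.6 and 3.01 ± 4.93 CPM in cluster 1. It was not called with the library as a block, and DESeq2 called it together with Cks1b, a subunit of Cdk complexes.

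Between the clusters 12 of 152 pathway genes were called higher in cluster 1 and 11 lower, beside 15.9% of all genes called. The balance depended on the fit, with 3 higher and 14 lower with the library as a block and 10 higher and 18 lower with limma-voom. Higher was, among others, Dut, which clears dUTP, at 77.2 ± 36.3 against 32.6 ± 18.1 CPM in control libraries, a call lost with the library as a block. Lower were Jun, at 21.5 ± 27.2 against 62.0 ± 25.2 CPM, and the stress gene Sesn2, at 9.74 ± 14.3 against 28.2 ± 14.6 CPM. The list of other mitosis genes had a median log2 difference of 0.54 over 33 genes, and the list of growth factors and MYC of -0.19 over 12, against -0.02 over all genes.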

How the data were processed

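OSE cells of 10 control and 9 E2-treated columns were sequenced with the Fluidigm HT 3′ protocol. The authors deposited a gene by cell table of estimated counts from kallisto 0.44.0 on GRCm38. kallisto divides reads among near-identical transcripts, and 66.9% of nonzero values were whole. They also deposited cell metadata with the percent of mitochondrial reads, a pseudotime score, SC3 cluster labels and trajectory states. A deposited table of imputed log values was not used. All 48 members and the pathway lists were chosen with earlier results of these data known. By the rule for named genes, Pcna, Mcm2, Mcm6, Rrm2, Ccnd1, Ccnd2, Ccnd3, Cdk4, Cdkn1a, Cdkn1b, Cdkn2a, Mki67, Top2a, Cdk1, Ccnb1 and Hmgb2 were given by library, with any member or pathway gene called for E2. Other genes were named after their values were seen, as extremes, for an unadjusted p below 0.05 or for their difference between the clusters.

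Counts were rounded, summed per library and cluster (at least 3 cells), and tested with edgeR 4.0.16 (filterByExpr, TMM, glmQLFTest, Benjamini-Hochberg adjustment) in R 4.3.3. limma 3.58.1 (voom) and DESeq2 1.42.0 were alternatives, and cyclone came from scran 1.30.0. Labels were rebuilt by k-means (10 principal components, 2 clusters). Shares used scipy 1.17.1, with exact Clopper-Pearson intervals at 95%. P-values measure the spread between columns of 1 suspension, which may be technical. The edgeR test of E2 was tried on simulated counts in which 100 genes changed 2-fold and 100 changed 4-fold. In responsive cells it called 18% of the 2-fold and 63% of the 4-fold changes. In cluster 1 it called 3% and 30%, so most changes of these sizes would be missed there. The erythroid markers (3) were absent from the table.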

Additional observations from a re-analysis of the deposited data

Results flagged for a closer look

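A library far from the rest of its group was found in 13 of 66 groups of libraries. The rule used flags about 1 in 20 groups of normally distributed values. Sums of sparse reads are not distributed in that way, so nothing is read from the number of flags. Among responsive cells, Mki67 reached 68.8 CPM and Ccnb1 37.7 CPM in E2 column 11, against next values of 26.5 and 8.77 CPM. Mcm6 reached 131.8 CPM in E2 column 15 against 52.1 CPM, and Cdkn1b 70.3 CPM in E2 column 18 against 34.2 CPM. In control, Cdkn1a reached 363 CPM in column 7 against 175 CPM, Cdkn1b 64.6 CPM in column 5 against 33.8 CPM, and Ccnb1 20.3 CPM in column 4 against 4.28 CPM.

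In cluster 1, Top2a reached 479.7 CPM in control column 9 against 218 CPM and 842 CPM in the 5 cells of E2 column 17 against 247 CPM. Hmgb2 reached 199 CPM in the 3 cells of E2 column 15 against 76.4 CPM. The remaining 3 values rest on 1 to 3 reads in groups otherwise at 0, namely Ccnd1 at 0.543 CPM in control column 10, Cdkn2a at 2.79 CPM in control column 9 and Ccnb1 at 2.64 CPM in E2 column 11.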

How the results depend on the processing

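No member was called for E2 in responsive cells, in cluster 1 or over all cells under any alternative. The interaction had 1 member called with DESeq2 and the cluster contrast 12 instead of 5. Signs turned in responsive cells for Rrm2 (-0.33 with limma-voom, -0.051 with rebuilt labels), Cdk4 (-0.0042 with limma-voom, -0.012 without a filter, -0.026 with thinned cells, -0.0042 with rebuilt labels) and Cdk1 (-0.12 with thinned cells). They turned in cluster 1 for Tpx2 (-0.16 with DESeq2, -0.18 with limma-voom, -0.18 with at least 5 cells per sum), Mki67 (-1.30 with limma-voom, -0.39 with thinned cells) and Top2a (-0.93 with limma-voom). The cause was not tested, except that the setting with 5 cells leaves out the library behind Tpx2.

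Cells with at least 3 G2/M members were 18.7%, 15.6%, 27.8% and 16.7% of control responsive, E2 responsive, control cluster 1 and E2 cluster 1 cells. Those with at least 5 were 26.1%, 14.2%, 31.0% and 14.3% without thinning. With at least 2 reads for each of the 5 members they were 2.46%, 2.29%, 10.3% and, in E2 cluster 1, 7.14%, which is 26 of 589 cells, and with at least 8 members 2.96%, 2.75%, 7.94% and 7.14%. Cells with at least 5 S phase members were 22.2%, 17.4%, 22.2% and 19.05% of control responsive, E2 responsive, control cluster 1 and E2 cluster 1 cells, 60.1%, 56.0%, 61.9% and 52.4% with at least 3, and 59.1%, 41.3%, 46.8% and 35.7% without thinning. With at least 8 they were 3.45% of control and 4.13% of E2 responsive cells. DESeq2 called 233 genes instead of 141 in responsive cells, 50 instead of 7 in cluster 1, 317 instead of 177 over all cells and 98 instead of 21 for the interaction. The interaction had 5 calls with thinned cells and 0 with the library as a block, E2 in cluster 1 had 1 without a filter, the cluster contrast had 2437 with limma-voom instead of 1562, and the share test had 174 unthinned and 70 with at least 2 reads instead of 105. Of the genes called in the cluster contrast 42.1% were higher in cluster 1, and 22.9% with the library as a block, 23.3% with limma-voom and 31.7% without a filter. RLE factors moved the median log2 difference of all genes by 0.11 for E2 in cluster 1, limma-voom by -0.32, and the block by -0.35 for the interaction and -0.31 for the cluster contrast. Settings without row 28, without E2 column 15 and with cells chosen by their summed G2/M level (36 cells, 32 of them multi-G2/M cells) were chosen after seeing the data, and without row 28 Hmgb2 was no longer called between the clusters. No paired analysis of E2 against control was possible because control and E2 columns share no replicate numbers. The cluster sums of a library are paired, and of the fits only those with the library as a block used that pairing.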
